A study of Mus musculus with 7 samples.

Results

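Cytoplasmic ribosomal protein genes were examined in single germinal vesicle (GV) oocytes of mice with and without the H3K4 methyltransferase SETD1B. The genes were chosen by symbol: every transcript of the deposited oocyte table that lies on the strand of its named gene and whose gene is called Rpl or Rps with a number and at most 1 further letter, together with Rplp0, Rplp1, Rplp2 and Rpsa. This gave 64 genes of the 33437 transcripts in the table, 37 of the large subunit and 27 of the small subunit, each with 1 transcript. A further 2 genes with such names, Rps10 and Rps18, had only a row on the other strand under their own symbol and were not members. The study deleted Setd1b in growing oocytes with Gdf9-Cre, a Cre recombinase that excises from early folliculogenesis, and sequenced the RNA of 1 oocyte per library. Both genotypes came from females of 21 days, C57BL6 in the labels and C57BL/6OlaHsd in the study's methods, and carried floxed alleles on both chromosomes. The Setd1b cKO group was Gdf9-Cre positive (n = 4) and the Setd1b WT group was Gdf9-Cre negative (n = 3), as the labels state. The study's methods also count Cre-positive heterozygous females as WT, and the labels were followed here. The labels do not tie oocytes to animals, so the tests measure the spread between these 7 oocytes.

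The mammalian ribosome is built from a large and a small subunit, each a framework of ribosomal RNA carrying a set of proteins that are needed mostly in equal numbers. The mRNAs for these proteins are short and abundant, and most begin with a C followed by a run of pyrimidines, the 5′ terminal oligopyrimidine (TOP) tract, through which mTOR signaling controls their translation. Growing oocytes accumulate ribosomes and ribosomal protein mRNAs for the embryo, and a fully grown GV oocyte has largely stopped transcribing, so its mRNA content is mainly a stored pool.

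The deposited values are log2 RPM, where RPM counts a transcript's reads in every 1000000 mapped ones. The libraries held 8582493 to 12972366 mapped reads, so that 1 read was worth 0.0771 to 0.117 RPM. Reads outside the counted transcripts made up 13.2 to 16.4% of the total in cKO and 9.57 to 9.90% in WT. All 11 of the oocyte markers found among 12 listed, such as Zp3 and Gdf9, were above 1 RPM in every library and together summed to 16033 to 19422 RPM in cKO and 21839 to 25762 RPM in WT, so that the genotypes did not overlap. The 20 granulosa cell markers found of 22 summed to 160 to 194 RPM in cKO and 202 to 240 RPM in WT, mostly Esr2, Nr5a2 and Cyp19a1, while the defining markers Amh and Foxl2 were at most 0.174 and 0.165 RPM. The lower sum in cKO followed Esr2, at 76.0 to 95.8 RPM in cKO and 134 to 158 RPM in WT, and does not describe the list. Nr5a2 was higher in cKO, at 32.5 to 50.8 RPM against 27.4 to 28.3 RPM, and Cyp19a1 overlapped. Other granulosa genes were detected at low levels, with Inha at 7.03, 11.4, 13.2 and 0.583 RPM in cKO 1 to 4 and 0.810, 4.32 and 0 RPM in WT 1 to 3, Fshr at up to 5.15 RPM and Hsd3b1 at up to 7.14 RPM. The 4 blood markers found of 6 listed summed to at most 0.494 RPM. The transcript of Setd1b itself was 8.31, 16.7, 12.8 and 2.68 RPM in cKO 1 to 4 and 17.7, 16.3 and 8.61 RPM in WT 1 to 3, so the genotypes overlapped. This level covers the whole transcript, so it does not test the deletion of the floxed part. Library 4 of the cKO and library 3 of the WT stood apart in the ribosomal protein genes, as described below, and the main comparisons of genotypes are given with and without them.

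Promoter sequences of the RefSeq gene models (GRCm38.p6) could be matched for 46 of the 64 genes, taking the annotated start nearest to the deposited transcript. These starts lay a median of 90.5 bases from the deposited transcript's own end, and within 100 bases for 25 genes, so they are annotated starts and not starts measured in these oocytes. A pyrimidine tract, defined as a C followed by at least 4 bases that are C or T on the transcribed strand, began within 5 bases of the start in 20 of the 46 promoters (43.5%) and in 18.3% of the 32851 promoters of the table. Within 20 bases it was found in 35 of 46 (76.1%) against 49.4% of all promoters. Between 60 bases before and 20 bases after the start, the following windows show this tract in capitals, 5′ to 3′ on the gene's strand. The capitals begin at the match nearest to the start, and the run of pyrimidines can extend further upstream. Rps6 and Rpl15 show the tract from the annotated start and Rps24 from 1 base before it. Rps23 was the gene called between genotypes, and Rpl31 and Rps9 had differences in opposite directions that were not called. Rpl9 did not vary with the other members and has no such tract within 20 bases.
Rps6 (chr4:86857348-86857427, minus strand): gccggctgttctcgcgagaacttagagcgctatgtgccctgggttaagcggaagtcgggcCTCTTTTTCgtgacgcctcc
Rpl15 (chr14:18270967-18271046, minus strand): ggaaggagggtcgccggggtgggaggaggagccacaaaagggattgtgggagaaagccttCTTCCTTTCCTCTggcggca
Rps24 (chr14:24490618-24490697, plus strand): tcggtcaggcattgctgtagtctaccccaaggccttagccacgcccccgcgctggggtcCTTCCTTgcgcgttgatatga
Rps23 (chr13:90923062-90923141, plus strand): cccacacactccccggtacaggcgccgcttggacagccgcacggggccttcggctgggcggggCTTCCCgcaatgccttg
Rpl31 (chr1:39367791-39367870, plus strand): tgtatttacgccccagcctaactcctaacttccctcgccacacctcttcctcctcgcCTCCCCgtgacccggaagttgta
Rps9 (chr7:3703981-3704060, plus strand): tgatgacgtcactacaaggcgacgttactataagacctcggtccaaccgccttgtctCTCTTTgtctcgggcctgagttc
Rpl9 (chr5:65391412-65391491, minus strand): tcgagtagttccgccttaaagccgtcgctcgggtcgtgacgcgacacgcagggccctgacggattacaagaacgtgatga

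Of other motifs searched on both strands of the 300 bases around each start, CCGGAA, the core to which ETS family factors bind, was present in 24 of the 46 promoters (52.2%) and in 14.9% of all promoters. AAGATGG, part of the YY1 motif, was present in 5 (10.9%, all promoters 6.34%) and TATAA in 13 (28.3%, all promoters 24.9%). The members' promoters held a median of 20.5 CG dinucleotides against 7 over all promoters. The 35 genes with a tract within 20 bases and the 11 without had median log2 fold changes between genotypes of 0.14 and 0.12.

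Per kilobase of spliced mRNA, the members spanned a wide range of levels. Rps29, a zinc-binding protein of the small subunit head, had the highest level at 969 RPM per kb (mean of 7 libraries), followed by Rps13 at 806, Rps14 at 785 and Rpl17 at 667 RPM per kb. The order among these 4 genes rests on gaps smaller than their spread between oocytes, and in WT 1 and WT 2 Rpl17 was above Rps29 per kb. At the other end, Rpl6l was at 1.36 RPM per kb, Rpl10l at 9.06 and Rps2 at 26.0 RPM per kb. Rpl6l is annotated by GENCODE as a processed pseudogene within a longer oocyte transcript and ranged from 0.233 to 3.65 RPM, so it did not pass the filter of 1 RPM in at least 3 libraries and was not tested. The remaining 63 genes passed it. Rpl5, a protein that carries 5S rRNA into the large subunit, gave the most reads of any member, 1027 to 1627 RPM, but ranked eighth per kb because its annotated mRNA has 2045 bases. Per kilobase of coding sequence the order changed, with Rpl39 first at 2407 RPM per kb and Rps29 second at 2249 RPM per kb, and the rank correlation of both orders was 0.88 over 63 genes.

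These levels depend on how reads were assigned. Ribosomal protein mRNAs have many processed copies in the genome, and the authors removed reads with a mapping quality below 20. Of 63 annotated mRNAs, 60 shared at least 1 exact 75-base window, the length of a read, with another annotated gene, the median share being 47.5% of windows. For Rpl10 this share was 91.9%, for Rpl9 84.2%, for Rps6 84.1%, for Rpl3 83.2%, for Rps23 50.3% and for Rps9 27.8%, whereas Rps3 and Rpl39l shared none. The share did not order the levels (Spearman rho -0.02 across genes, which are not independent). Of the 64 members, 13 overlapped a transcript on the other strand. Rps21 and its opposite-strand neighbor had means of 180 and 183 RPM, Rps28 and its neighbor 88.3 and 96.7 RPM, and Rpl15 and its neighbor 145 and 280 RPM. Whether reads were counted by strand is not given in the sources used here, and whether these pairs share reads was not tested.

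Ribosomal protein mRNA varied about 2-fold between oocytes of the same genotype. Together the 64 genes took 1.32, 1.12, 1.69 and 2.64% of mapped reads in cKO 1 to 4, and 1.14, 1.25 and 2.20% in WT 1 to 3. The means were 1.69% ± 0.675 (SD, n = 4) in cKO and 1.53% ± 0.581 (SD, n = 3) in WT, so the difference between genotypes was smaller than the spread within either. Without cKO 4 and WT 3 the means were 1.38% ± 0.287 (SD, n = 3) and 1.19% ± 0.0845 (SD, n = 2). The median member was at 160, 146, 223 and 364 RPM in cKO 1 to 4 and at 149, 153 and 296 RPM in WT 1 to 3. In each genotype 1 oocyte, cKO 4 and WT 3, was well above its companions. Because RPM is a share of a library's reads, more of these mRNAs and fewer of the others cannot be told apart.

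**Figure D1:**
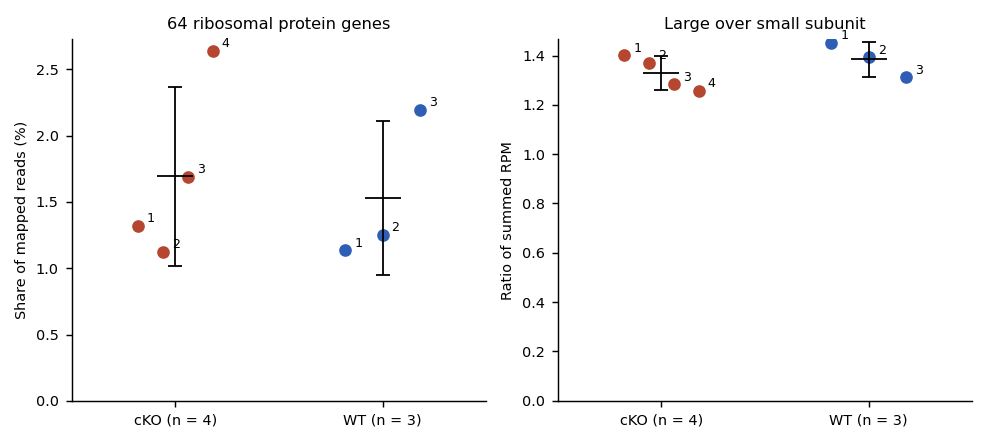
Left, percent of mapped reads taken by the 64 ribosomal protein genes in each library (points, numbered by replicate). Right, summed RPM of the large subunit genes over that of the small subunit genes. Bars are mean ± SD; cKO 4 at 2.64% and WT 3 at 2.20% lie above the rest, while the ratio stays between 1.26 and 1.45.

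The members moved together between oocytes. Library cKO 4 had the highest value among cKO oocytes in 57 of 63 genes, against 32.3% of all transcripts tested, and WT 3 the highest among WT oocytes in 60 of 63, against 37.8%. Library cKO 2 was lowest among cKO in 54 genes and WT 1 lowest among WT in 55, for which the shares of all transcripts were not computed. The median member was 2.06-fold higher in cKO 4 than in the other cKO oocytes and 1.93-fold higher in WT 3 than in the other WT oocytes. Rpl37 had the largest difference in cKO 4 (2.97-fold), with 277, 227, 370 and 851 RPM in cKO 1 to 4 and 288, 320 and 720 RPM in WT 1 to 3. Rpl36 had the largest difference in WT 3 (2.70-fold), with 77.3, 91.0 and 229 RPM in WT 1 to 3 and 92.7, 68.9, 137 and 264 RPM in cKO 1 to 4. Both are small proteins of the large subunit. The median SD within genotypes was 0.59 on the log2 scale for the members, 0.41 for all transcripts tested and 0.35 for those averaging 16 RPM or more. By subunit, the median log2 difference was 0.98 for the large and 1.07 for the small subunit in cKO 4, and 0.86 and 0.98 in WT 3. The ratio of large to small subunit reads stayed within 1.26 to 1.40 in cKO and 1.31 to 1.45 in WT.

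**Figure D2:**
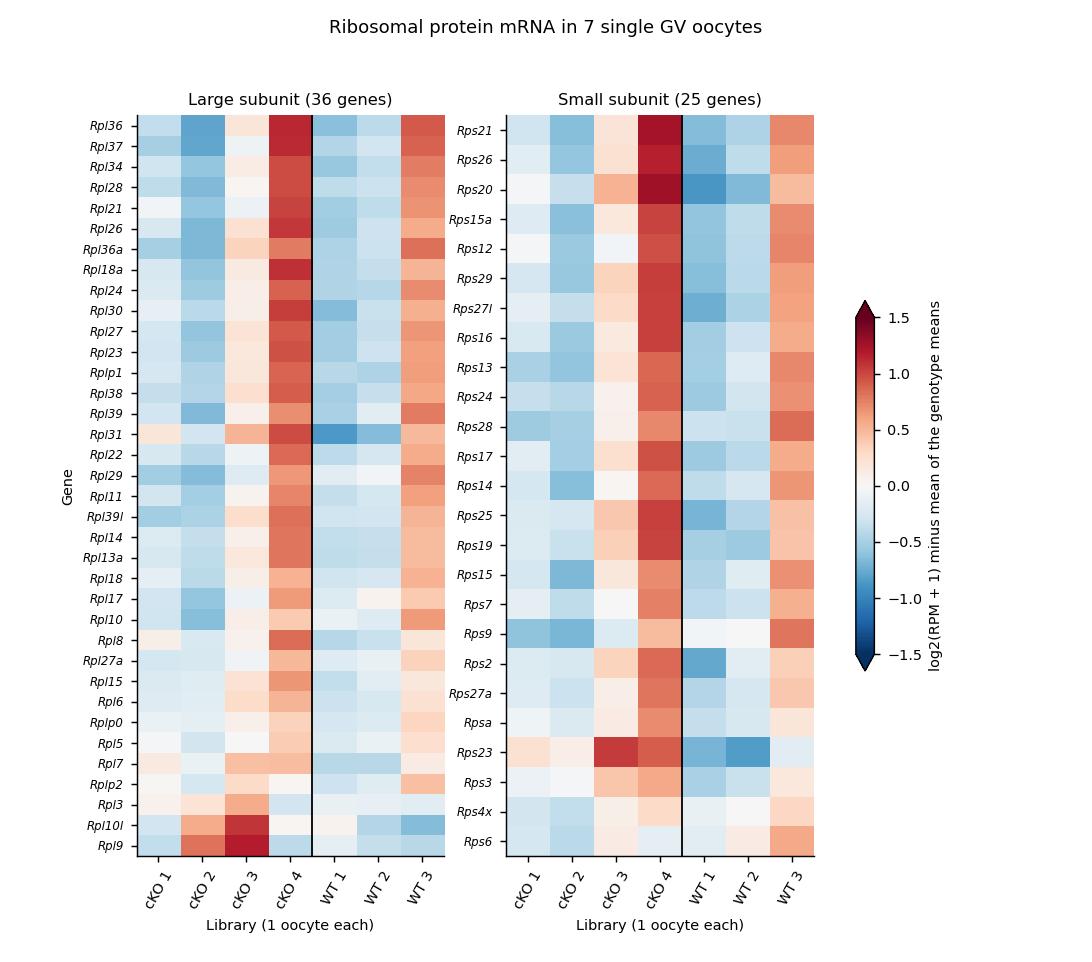
Heat map of log2(RPM + 1) in every library for 61 of the 63 genes tested, each gene relative to the mean of its genotype means (red above, blue below), large subunit left and small subunit right. The columns cKO 4 and WT 3 are red for nearly all genes, and Rpl9, Rpl10l and Rpl3 at the foot of the left panel differ from this pattern.

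Each log2 value was taken as its deviation from the mean of its genotype, which removes the difference between genotypes. Over the 7 libraries, a member's deviations were correlated (Pearson) with the median deviation of the other members. The median correlation was 0.99, and 57 of 63 genes exceeded 0.9. All points share the same libraries and the same scaling to mapped reads. The genes most like the median member were Rps21, a small protein of the small subunit, and Rpl23, a large subunit protein close to the stalk, both at 0.999. The 3 genes below 0.5 were Rpl3, a core protein near the peptidyl transferase center (-0.44), Rpl9, a protein of the stalk base (-0.36), and Rpl10l, the retrogene copy of Rpl10 (-0.28). Rpl3 was at 96.8, 107, 136 and 76.1 RPM in cKO 1 to 4 and at 85.6, 84.8 and 82.5 RPM in WT 1 to 3. Rpl9 was at 21.97, 51.0, 66.2 and 21.6 RPM in cKO and at 25.8, 22.1 and 21.2 RPM in WT. Both had their highest value in cKO 3, followed by cKO 2, and neither was raised in cKO 4 or WT 3. Of the 20 granulosa markers found, 2 had this order of cKO 3 followed by cKO 2, Inha, given above, and Hsd3b1, at 0.396, 5.02, 7.14 and 0 RPM in cKO 1 to 4 and at 0.324, 0 and 0.842 RPM in WT 1 to 3. Others did not, such as Fshr at 5.15, 3.38, 1.04 and 0 RPM and Nr5a2 at 37.3, 34.5, 32.5 and 50.8 RPM in cKO 1 to 4. Of the 20, 5 had their highest cKO value in cKO 3. The sum of the list was 184, 194, 186 and 160 RPM. Esr2 made up much of it, at 90.3, 95.8, 85.2 and 76.0 RPM, so the sum says little about the other markers. The part of granulosa RNA in the pattern of Rpl3 and Rpl9 was not tested. A further 3 genes, Rplp2 (0.71), Rps6 (0.71) and Rps23 (0.84), were intermediate.

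The same oocytes stood apart in other short mRNAs. Among other protein-coding genes averaging 16 RPM or more, the median difference of cKO 4 from the other cKO oocytes was 0.88 on the log2 scale for 49 genes with a spliced length under 500 bases, 0.73 for 196 genes of 500 to 750 bases, 0.46 for 278 genes of 750 to 1000 bases, 0.03 for 673 genes of 1000 to 1500 bases, -0.43 for 1334 genes of 1500 to 2500 bases and -0.24 for 2920 genes of 2500 bases or more. In WT 3 the corresponding medians were 0.99, 0.77, 0.47, 0.13, -0.31 and -0.24. The ribosomal protein genes were at 1.10 and 1.16 under 500 bases (12 genes) and at 0.95 and 0.83 between 1000 and 1500 bases (11 genes). They were at 0.62 and 0.52 between 1500 and 2500 bases (4 genes), and the 1 longer gene was at 1.21 and 1.24. Across the 63 members, spliced length and the difference had Spearman correlations of -0.38 in cKO 4 and -0.50 in WT 3. The 70 genes of the mitochondrial ribosome, with a median spliced length of 1284 bases, were at 0.45 in cKO 4 and 0.48 in WT 3. Across members, the difference in cKO 4 and that in WT 3 had a Pearson correlation of 0.87 and a Spearman correlation of 0.81 (n = 63 genes, which share the libraries), and 0.82 for both over the other 5450 protein-coding genes. The granulosa marker sum was not raised in these oocytes, at 160 RPM in cKO 4 and 207 RPM in WT 3. The part of mRNA length in the rise of the ribosomal protein genes was not tested.

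**Figure D3:**
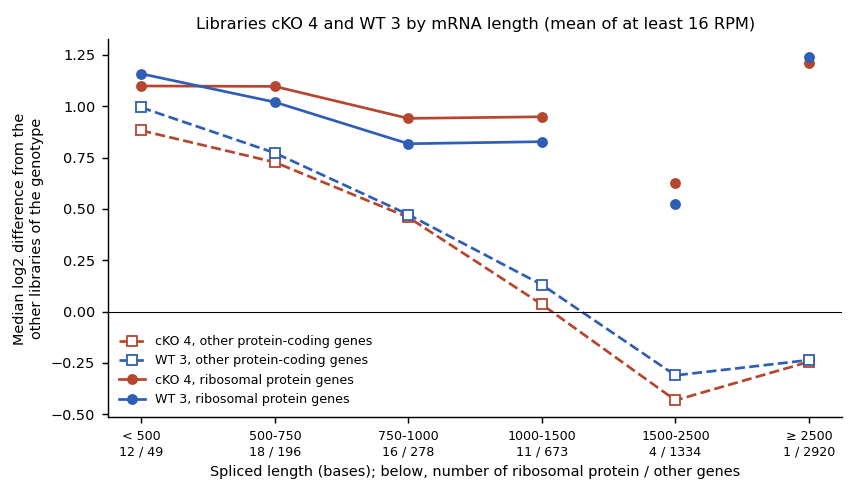
Median log2 difference of library cKO 4 (red) and WT 3 (blue) from the other libraries of its genotype, by spliced mRNA length in bases, for ribosomal protein genes (filled circles) and other protein-coding genes (open squares) averaging 16 RPM or more. The squares fall from 0.88 and 0.99 in the shortest class to -0.43 and -0.31 at 1500 to 2500 bases and are at -0.24 in the longest; the last 2 circles, not joined, hold 4 genes and 1 gene.

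Between genotypes, few of the ribosomal protein genes were called. With limma across 18179 transcripts, with p-values adjusted by Benjamini-Hochberg over all of them and calls at an adjusted p under 0.05 with more than a 2-fold difference, 1 of 63 members was higher in cKO, Rps23, and none was lower. Over all transcripts tested, 3.76% were called higher and 1.95% lower. At an unadjusted p under 0.05, 1 member was higher and 0 were lower, where 14.2% and 7.52% of all transcripts tested were. Every cKO oocyte was above every WT oocyte for 1 member, again Rps23, where 13.2% of all transcripts did so, and every cKO oocyte was below every WT oocyte for 0 of the 63 tested, where 7.14% of all transcripts did so. The untested Rpl6l was lower in every cKO oocyte, at 0.233 to 0.906 RPM against 0.925 to 3.65 RPM in WT. The median log2 fold change of the members was 0.16, against 0.12 for all transcripts tested and 0.03 for those averaging 16 RPM or more, with 46 members above 0 and 17 below and a range from -0.51 to 1.15. By subunit the median was 0.12 for 36 large subunit genes and 0.19 for 27 small subunit genes. The median of the members depended on single oocytes, those that stood apart and others: it was 0.25, 0.33, 0.13 and -0.12 without cKO 1 to 4 in turn, -0.05, 0.02 and 0.46 without WT 1 to 3, and 0.21 without both cKO 4 and WT 3.

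**Figure D4:**
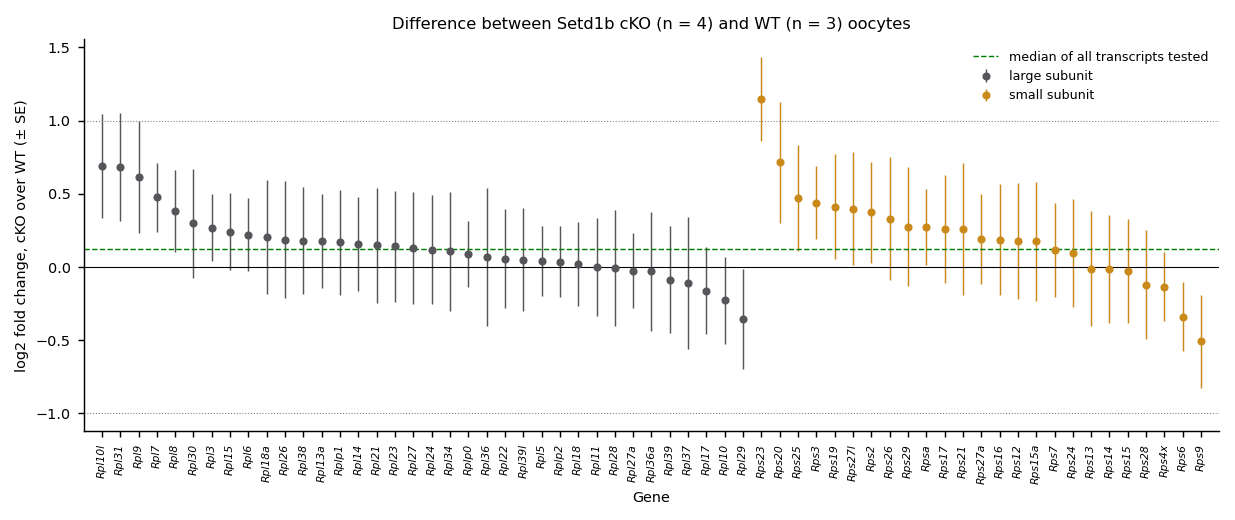
Log2 fold change, cKO over WT, on the log2(RPM + 1) scale with its standard error for 61 of the 63 genes tested, ordered within subunit. The dashed line is the median of all transcripts tested (0.12) and dotted lines mark 2-fold; Rps23 at 1.15 is the gene beyond them.

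Rps23, a conserved small subunit protein at the decoding center, was at 150, 137, 265 and 240 RPM in cKO 1 to 4 and at 78.1, 70.6 and 113 RPM in WT 1 to 3. All 4 cKO oocytes were above all 3 WT oocytes, and the means were 198 ± 64.0 (SD, n = 4) and 87.1 ± 22.5 RPM (SD, n = 3). Its transcript spans chr13:90922903-90925014 (GRCm38), and the log2 fold change was 1.15 ± 0.29 (SE), with an adjusted p of 0.0421 by limma. Without cKO 4 and WT 3 the log2 fold change was 1.23, with an adjusted p of 0.00640 by limma. These 2 oocytes were singled out by the members' own values, so the fit without them gives no independent support, here or for the genes below. The call of the main fit was near the threshold. It was lost when cKO 1 (adjusted p = 0.0617), cKO 3 (0.117), WT 1 (0.149) or WT 2 (0.180) was left out. It was also lost without the filter on low values (0.168), centered on the median gene (0.0708), without the trend in eBayes (0.0603), with limma-voom on recovered reads (0.0529) and scaled to the median ribosomal protein gene (0.397). Of the 75-base windows of its mRNA, 50.3% are found in 13 other annotated genes, 9 of them pseudogenes.

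Among the other large subunit genes, those with the largest positive differences were Rpl10l, Rpl31, Rpl9 and Rpl7, and none passed the test. Rpl31, a protein near the exit of the nascent peptide tunnel, was at 208, 150, 261 and 363 RPM in cKO and at 101, 116 and 257 RPM in WT. Its oocytes overlapped between genotypes because WT 3 was above cKO 1 and cKO 2, and its log2 fold change was 0.69 ± 0.37 (SE; adjusted p = 0.317). Without cKO 4 and WT 3 it was 0.89 with an adjusted p of 0.0222, below 2-fold. Rpl7 was at 348, 297, 436 and 439 RPM in cKO and 237, 238 and 345 RPM in WT, where WT 3 again overlapped the cKO range, with a log2 fold change of 0.48 ± 0.24 (SE; adjusted p = 0.272). Rpl9, given above by library, had a log2 fold change of 0.61 that came from cKO 2 and cKO 3 alone, the other 2 cKO oocytes lying within the WT range. The lowest large subunit gene was Rpl29, at 49.3, 44.8, 62.1 and 112 RPM in cKO and 63.1, 68.9 and 119 RPM in WT (log2 fold change -0.36 ± 0.34, SE; adjusted p = 0.610). Rpl10 followed with -0.23 and Rpl17 with -0.16. Without cKO 4 and WT 3 the log2 fold changes were 0.58 for Rpl7 (adjusted p = 0.0716), 0.79 for Rpl9 (0.172) and -0.35 for Rpl29 (0.336), so these 3 genes were not past the threshold there either. The remaining oocytes of Rpl7 and Rpl29, like those of Rpl31, did not overlap between genotypes. With 3 cKO and 2 WT oocytes such a separation arises easily, and the share of all transcripts that separated was not computed.

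The acidic stalk recruits the elongation factors to the ribosome and is built from Rplp0 with copies of Rplp1 and Rplp2. Rplp0 was at 261 to 364 RPM in cKO and 242 to 359 RPM in WT, and Rplp1 at 154 to 385 and 153 to 325 RPM, so for both the genotypes overlapped over most of their ranges. Rplp2 was at 260, 215, 314 and 262 RPM in cKO and 206, 226 and 350 RPM in WT. It was thus raised in WT 3 (1.62-fold) but not in cKO 4 (1.01-fold), unlike Rplp1, which was 2.07-fold higher in cKO 4 and 2.09-fold in WT 3. The log2 fold changes between genotypes were 0.09, 0.17 and 0.04 for Rplp0, Rplp1 and Rplp2, with adjusted p of 0.873, 0.843 and 0.958. Rpl5 and Rpl11, which form the 5S particle and restrain MDM2 when ribosome assembly fails, differed by 0.04 ± 0.24 (SE) and 0.00 ± 0.33 (SE).

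Among the small subunit genes, Rps20 had the largest difference after Rps23. It was at 308, 244, 445 and 748 RPM in cKO and at 168, 195 and 430 RPM in WT, so all cKO oocytes were above WT 1 and WT 2 but only cKO 3 and cKO 4 above WT 3. Its log2 fold change was 0.71 ± 0.41 (SE; adjusted p = 0.359), and 0.83 with an adjusted p of 0.0337 without cKO 4 and WT 3. Rps19, the gene first linked to Diamond-Blackfan anemia, had a log2 fold change of 0.41 ± 0.36 (SE; adjusted p = 0.566), or 0.46 (adjusted p = 0.196) without cKO 4 and WT 3, and Rpsa, also known as the laminin receptor, 0.28 ± 0.26 (SE; adjusted p = 0.607). Rps27a, which is made as a fusion with ubiquitin, had 0.19 ± 0.31 (SE; adjusted p = 0.787).

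The lowest log2 fold change of all members was that of Rps9, a protein of the small subunit body. It was at 155, 147, 205 and 327 RPM in cKO and at 229.5, 236 and 411 RPM in WT. The genotypes overlapped because cKO 4 was above WT 1 and WT 2, and the log2 fold change was -0.51 ± 0.32 (SE), with an adjusted p of 0.403 by limma. Without cKO 4 and WT 3 the remaining oocytes did not overlap, at a log2 fold change of -0.48 and an adjusted p of 0.138. The share of all transcripts that separated among these 3 cKO and 2 WT oocytes was not computed. Rps6, the substrate of the S6 kinases, was at 152, 138, 200 and 166 RPM in cKO and 162, 199 and 271 RPM in WT, a log2 fold change of -0.34 ± 0.24 (SE; adjusted p = 0.457), and -0.15 (adjusted p = 0.698) without cKO 4 and WT 3. It was not raised in cKO 4 (1.03-fold) but was in WT 3 (1.505-fold).

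**Figure D5:**
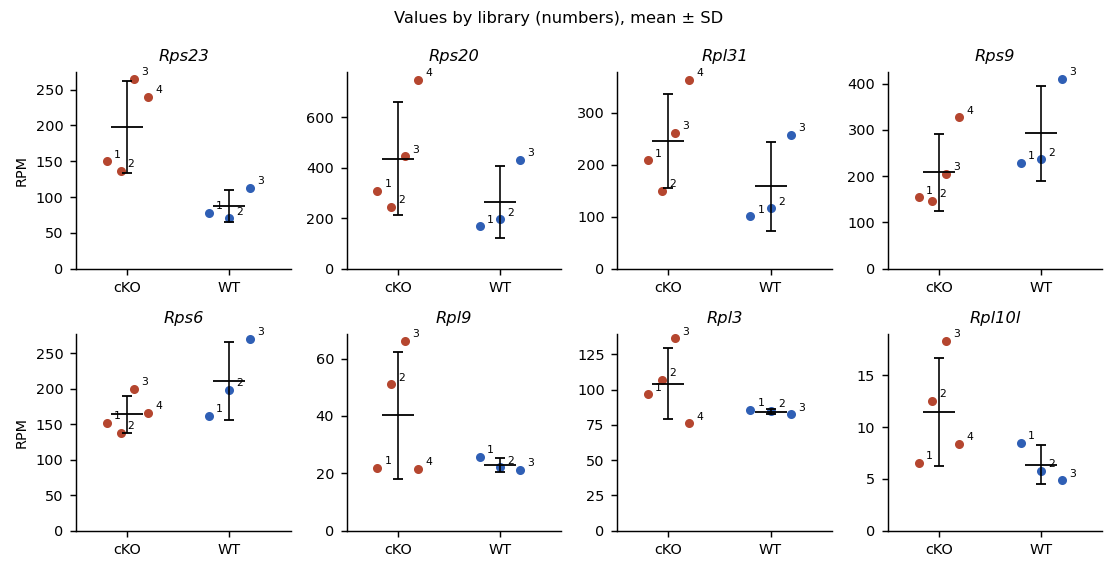
RPM of 8 ribosomal protein genes in each library (points, numbered by replicate; bars, mean ± SD), cKO in red (n = 4) and WT in blue (n = 3). Rps23 is the gene whose genotypes do not overlap; Rps20, Rpl31 and Rps9 follow the oocytes cKO 4 and WT 3, and Rpl9, Rpl3 and Rpl10l do not.

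Each oocyte was then set against its own median member, which takes out the variation they share. On this scale every cKO oocyte was above every WT oocyte for 6 members (Rps23, Rps20, Rpl31, Rps25, Rps19 and Rps27l) and below for 6, among them Rps9, Rpl29, Rpl10, Rps28 and Rpl11, where 5.07% and 3.92% of all transcripts tested did so on the same scale. This scaling takes shared variation out of the members and adds it to the other transcripts, so the members' counts and their balance cannot be read against these shares. The mean difference was 1.002 for Rps23, 0.57 for Rps20 and 0.54 for Rpl31 on the log2 scale, and -0.65 for Rps9 with an SD within genotypes of 0.08. None of the members was called when all libraries were rescaled in this way and refitted, the adjusted p being 0.397 for Rps23, 0.588 for Rps9 and 0.689 for Rps20. This scale was chosen after the values by oocyte were seen.

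Paralogues of ribosomal proteins with restricted expression were compared with their partners per kilobase. Rpl10l, an autosomal retrogene that stands in for X-linked Rpl10 in male meiosis, was at 9.06 RPM per kb in these oocytes and Rpl10 at 246 RPM per kb. Rpl10l was at 6.53, 12.5, 18.3 and 8.39 RPM in cKO and at 8.50, 5.78 and 4.87 RPM in WT, with a log2 fold change of 0.69 ± 0.35 (SE; adjusted p = 0.292). Rpl39l, a copy of Rpl39 known from testis, was at 401 RPM per kb and Rpl39 at 602 RPM per kb, with log2 fold changes of 0.05 and -0.09. Rps27l, a p53-responsive copy of Rps27, was at 619 RPM per kb, with a log2 fold change of 0.40 ± 0.39 (SE; adjusted p = 0.615). Rps27 itself was not a member, because no transcript carried its name. Of the X-linked members, Rps4x, Rpl10, Rpl36a and Rpl39, none was called and all had log2 fold changes below 0, from -0.23 for Rpl10 to -0.03 for Rpl36a, none larger than its SE. This sign was not stable: Rpl10 was above 0 in 1, Rpl39 in 3 and Rpl36a in 7 of 23 alternative settings, while Rps4x was below 0 in all 23.

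Most ribosomal protein genes outside the naming rule were also highest in cKO 4 and WT 3. Of 80 protein-coding GENCODE genes with such names, 63 were members, and 12 others lay in the table under the name of a neighboring or overlapping gene. None of these 12 was called, their median log2 fold change was 0.13, and cKO 4 and WT 3 were each the highest oocyte of their genotype in 11 of 12. The highest was Rpl32, at 579, 473, 768 and 1409 RPM in cKO and 445, 498 and 930 RPM in WT. The exception in both was Rpl4, a long large subunit protein, at 460 to 521 RPM in cKO and 488 to 544 RPM in WT. Of 6 ribosomal proteins whose symbols the rule leaves out, none was called. Among them, log2 fold changes were 0.26 for Fau, 0.47 for Rack1, 0.25 for Rpl36al, 0.83 for Rpl22l1 and 0.34 for Rpl7l1. Library cKO 4 was the highest cKO oocyte in 5 of these 6 and WT 3 the highest WT oocyte in 5. Rpl7l1 was the exception in both, at 48.5, 61.4, 61.3 and 42.2 RPM in cKO and 47.0, 42.8 and 35.2 RPM in WT, lowest in cKO 4 and WT 3.

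In the wider translation machinery, 2 genes were called, Rheb and Mrps26, both higher in cKO, where 3.76% of all transcripts tested were called higher and 1.95% lower. Of 9 elongation factor genes, 50 tested initiation factor genes, 44 ribosome biogenesis genes, 14 genes of RNA polymerase I and 12 of RNA polymerase III and its factors, none was called in either direction, and their median log2 fold changes were 0.19, 0.08, 0.12, 0.20 and 0.20. Of 12 regulators of TOP mRNA translation, 1 was higher, Rheb, the GTPase that activates mTORC1. Rheb was at 85.1, 134, 130 and 136 RPM in cKO and 39.0, 61.7 and 68.5 RPM in WT, with no overlap and a log2 fold change of 1.11 (adjusted p = 0.0344). Of 70 mitochondrial ribosomal protein genes, 1 was higher, Mrps26, at 167, 105, 156 and 330 RPM in cKO and 29.7, 33.0 and 101 RPM in WT, with a log2 fold change of 1.88 (adjusted p = 0.0390). Of 17 other TOP mRNAs tested, which include Eef1a1, Eef2 and Pabpc1, none was called. Some of these are also in the lists above. In the oocytes that stood apart their medians were 0.25 in cKO 4 and 0.26 in WT 3, at a median spliced length of 1864 bases, where the members were at 1.04 and 0.95 with 761 bases. Eef1a1 was at 662, 712, 596 and 310 RPM in cKO and 787, 722 and 470 RPM in WT, lowest in the same oocytes in which the ribosomal protein genes were highest.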

How the data were processed

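RNA was sequenced from single GV oocytes, 4 Setd1b cKO and 3 Setd1b WT. Per the paper's methods, the authors made cDNA with a SMARTer Ultra Low kit, aligned reads to GRCm38 with HISAT, removed alignments with a mapping quality below 20 and counted reads in SeqMonk over oocyte transcripts with isoforms merged. Strand use is not given in the sources used here. The submitters' processing notes also name bcl2fastq 1.8.4 and featureCounts 1.4.4. The deposited table holds log2 RPM per transcript, computed by the authors from reads per library, with 0.9 read in place of 0. All values correspond to whole reads (tolerance 0.02).

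From these, RPM values were recovered and log2(RPM + 1) of transcripts reaching 1 RPM in 3 or more libraries was tested with limma 3.58.1 (R 4.3.3; lmFit, eBayes with trend), adjusting p-values by Benjamini-Hochberg over 18179 transcripts. Fold changes on this scale understate those of low genes. The study tested counts with a negative binomial model, and limma-voom on recovered reads was an alternative. The fit was tested on simulated data. Non-member names and spliced lengths came from GENCODE M21 (shortest mRNA with the longest coding sequence).

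The members and gene lists were chosen with earlier results of these data known. Named members were any past the threshold, the 6 largest differences in each direction, any whose genotypes do not overlap, the 5 highest and 3 lowest levels per kb, and fixed stalk, 5S, disease, paralogous and X-linked genes. Others named for comparison (Rpl37, Rpl36, Rps21, Rpl23, Rps25, Rps28, Rps3, Rpl15, Rps24, Rpl32, Rpl4, Inha, Fshr, Hsd3b1, Nr5a2) were chosen after their values were seen. A few genes are not reported by name here. Protein features were not analysed here. Every per-sample column of the table was used. The alternatives were other pseudocounts, filters, scalings, models and library sets.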

Additional observations from a re-analysis of the deposited data

How the results depend on the processing

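The count of ribosomal protein genes called higher in cKO was 1 in 19 of 28 alternatives, and 0 in 9: without the filter on low values (adjusted p of Rps23 0.168), centered on the median gene (0.0708), without the trend in eBayes (0.0603), with limma-voom (0.0529), scaled to the median ribosomal protein gene (0.397), and without cKO 1, cKO 3, WT 1 or WT 2. All 9 were among the 23 alternatives that refitted the data. The rest were not refits, and those that summed rows or kept single-row genes could not change the count. Leaving out each oocyte in turn gave 0 to 1, with the log2 fold change of Rps23 from 0.99 to 1.34. The count called lower was 0 in every alternative. The median log2 fold change of the members ranged from -0.12 without cKO 4 to 0.46 without WT 3, and was 0.00 centered on the median gene, where that of all transcripts moved from 0.12 to -0.03. Of 31 named genes tested, 15 kept their sign in all 23 alternatives fitted.

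Nothing in the labels ties oocytes of the same replicate number. The deviations of same-numbered oocytes correlated at 0.19, 0.29 and -0.13, which cannot show whether any oocytes were paired. With the replicate block, to which cKO 4 adds nothing because it has no partner, 1 member was called higher, none lower, and the median was -0.12. Rps9 then had an adjusted p of 0.0231 at a log2 fold change of -0.75, under 2-fold.

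Summing rows of a gene and keeping genes with a single row changed nothing, since each member has 1 row. Scaling to the median member, leaving out both cKO 4 and WT 3, adding the genes named for a neighbor and the shared 75-base windows were chosen after seeing the data. The SE of the members' log2 fold changes, for example 0.32 for Rps9, sets what this number of oocytes can resolve.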

Other observations

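Log2 values of the ribosomal protein genes correlated at 0.902 to 0.992 between oocytes of a genotype and at 0.904 to 0.974 between genotypes (Pearson, across genes, which are not independent). The oocytes with the most ribosomal protein mRNA, cKO 4 and WT 3, also had the lowest quality weights when limma estimated 1 weight per library, 0.377 and 0.514, where the others had 1.21 to 1.75. Of the 11 oocyte markers found, 8 were lowest of their genotype in both of these oocytes (Zp1, Zp2, Gdf9, Bmp15, Ddx4, Dazl, Nobox and Kit), and Zp3, Oosp1 and H1foo were not. The share of all transcripts lowest in both was not computed. Other protein-coding genes of 1500 bases or more also had medians below 0 in both oocytes, while the shorter classes were above 0. Zp2, which encodes a zona pellucida protein, was at 751 RPM in cKO 4 and 1033 RPM in WT 3 against 2307 to 3201 RPM in the other cKO and 3006 to 3007 RPM in the other WT oocytes, and Zp3 was at 4234 RPM in cKO 4 and 4891 RPM in WT 3.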
